A study of Mus musculus with 4 samples.

Results

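The genes described here are Tfap2a, Tfap2b and Tfap2c, which encode the AP-2 transcription factors AP-2 alpha, beta and gamma. Their members are all probe sets that the platform annotation assigns to exactly 1 of these 3 genes. There were 8 of them among the 45101 probe sets of the array, 3 for Tfap2a, 2 for Tfap2b and 3 for Tfap2c, and 3 genes of 18193 with a symbol of their own. No AP-2 member was lost to sharing a probe set with another gene, and all 8 lay above the limit for dim probe sets. RNA came from the autopod, the distal limb bud that forms hand or foot, of C57BL/6 mouse embryos at E11.25. The 2 Hox13dKO samples were homozygous for a null allele of Hoxa13 and for a deletion that removes Hoxd11, Hoxd12 and Hoxd13, and the 2 wild-type samples carried neither. Fore- and hindlimb pieces entered together, cut to the domain in which Hoxd13 is expressed. Both alleles are germline changes, so every cell type in a Hox13dKO sample lacked these Hox genes. The titles name biological replicates, and how many embryos each sample held is not stated in them. The p-values measure only the spread between these samples.

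AP-2 proteins bind GC-rich DNA as dimers through a basic domain followed by a helix-span-helix domain, and they activate or repress genes of the surface ectoderm, the neural crest, the kidney and the limb. Mouse Tfap2a is needed to close the neural tube and body wall and to form the face and the limb skeleton. Mouse Tfap2b is needed for the survival of kidney epithelium, and mutations of human TFAP2B cause Char syndrome, in which the ductus arteriosus fails to close and the face and the little finger are malformed. Tfap2c is known for its roles in trophoblast, in germ cells and in the surface ectoderm. The comparison asks whether the distal limb bud that lacks its terminal Hox genes has other levels of these transcripts.

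The targeted genes were checked first. Hoxd13 read 5.79 and 9.58 signal units in the Hox13dKO samples, against 14540 and 16117 in the wild-type samples. Hoxa13 read 52.4 and 58.0 units in Hox13dKO against 842 and 1463 in wild type, and Hoxd12 read 5.23 and 33.5 units against 1208 and 2171. Hoxd11 kept more signal, with 348 and 454 units in Hox13dKO against 1831 and 1745 in wild type, which is 22.4% of the wild-type mean. Where its probes lie relative to the deletion is not known here. All 4 were lower in both Hox13dKO samples than in both wild-type samples. Limb bud mesenchyme was checked with 14 marker genes, all of which were measured, and the summed signal of these was 41783 and 37993 units in Hox13dKO against 42282 and 40451 in wild type. This sum weighs bright genes most and does not show that each marker was even. Prrx1 had a mean of 10531 units in Hox13dKO against 7480 in wild type, and Hand2 of 5024 against 7015. Of the 14 markers, 5 had positive and 9 negative differences. Each array had been scaled to the same trimmed mean, 500.003 units. In limma, 56 of 27022 probe sets had an adjusted p under 0.05, which is 0.207% of those tested, 25 of them lower in Hox13dKO (0.0925%) and 31 higher (0.115%). After median centring of the arrays 214 passed, 146 of them higher. The count was 20 when Hox13dKO replicate 1 was left out and 16 when Hox13dKO replicate 2 was. It was 257 when wild type replicate 1 was left out and 467 when wild type replicate 2 was.

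Of the AP-2 transcripts, Tfap2b was lower in the Hox13dKO autopod by one of its probe sets, and the other AP-2 probe sets did not pass. Exactly 1 of the 8 AP-2 probe sets was called. All 8 had negative log2 differences, Hox13dKO minus wild type, where 51.7% of all tested probe sets did. Their median was -0.32 against -0.01 over all tested probe sets. Probe sets of the same gene measure the same RNA and are not independent, so these counts describe 3 genes. In 3 of the 8, both Hox13dKO arrays lay below both wild-type arrays, an order found in 18.3% of all tested probe sets. The reverse order was found in 0 of the 8 and in 16.3% of all. In the other 5 the groups overlapped, where 34.6% of all tested probe sets did not overlap. In whole tissue, fewer cells that express a gene and less RNA per cell cannot be told apart.

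**Figure D1:**
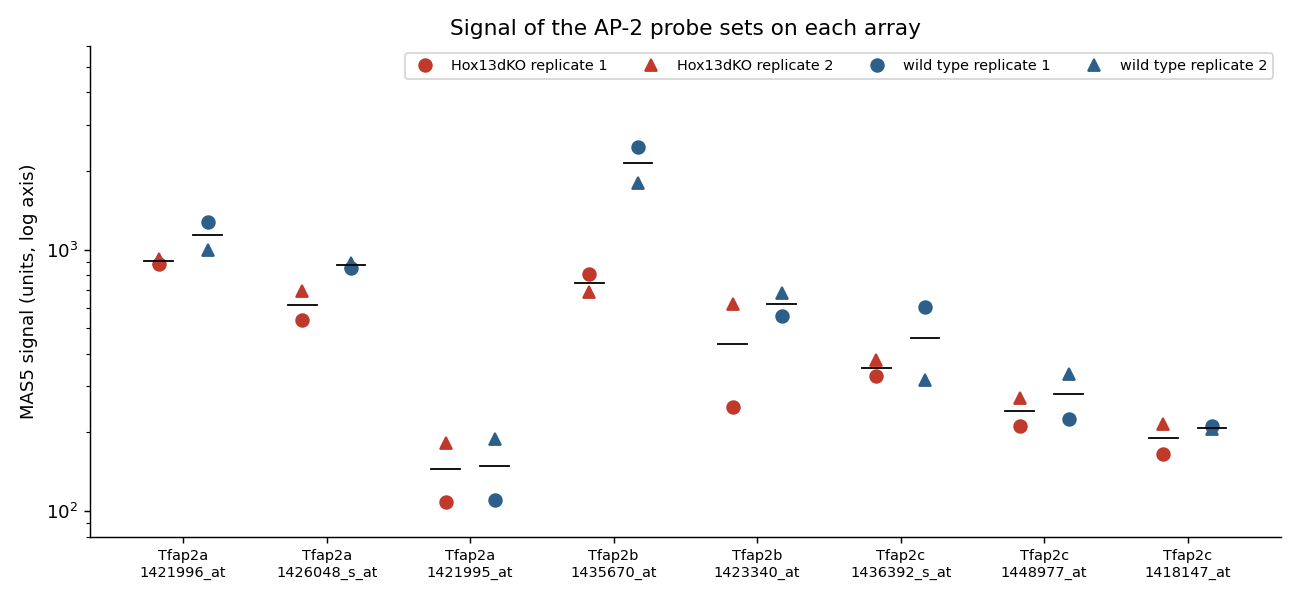
MAS5 signal in units on a log axis for the 8 AP-2 probe sets, with a point for each array and a black line at each group mean. Tfap2b 1435670_at has both Hox13dKO samples (808 and 688 units) below both wild-type samples (2463 and 1802), and heights of different probe sets are not comparable.

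Tfap2b, the AP-2 gene tied to hand malformation in humans, gave the largest difference among the tested AP-2 probe sets. By its brighter probe set, 1435670_at, it read 808 and 688 units in the Hox13dKO samples, against 2463 and 1802 units in the wild-type samples. The groups were well apart: the gap between the higher Hox13dKO sample and the lower wild-type sample exceeded the gap between samples within either group. Means were 748 ± 84.8 units in Hox13dKO and 2133 ± 468 units in wild type (SD, n = 2 each). The log2 difference was -1.50 ± 0.19 (SE), with a 95% interval of -1.94 to -1.06, which is 2.83-fold lower (limma adjusted p = 0.0359). It stood at place 39 of the 27022 probe sets by p.

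That call depended on the arrays and settings used. With Hox13dKO replicate 1 left out, the log2 difference of -1.61 did not pass (adjusted p = 0.156). With Hox13dKO replicate 2 left out, the value of -1.38 did not pass either (adjusted p = 0.215). The log2 difference stayed at -1.50 but did not pass without the filter on dim probe sets (adjusted p = 0.383) or without the intensity trend in the variance (adjusted p = 0.591), settings under which 0 and 1 probe sets passed in all. As the mean over both Tfap2b probe sets the difference was -1.07 and did not pass (adjusted p = 0.0981). The brightest probe set passed when wild type replicate 1 was left out (-1.27, adjusted p = 0.00223) and when wild type replicate 2 was (-1.72, adjusted p = 3.78e-05).

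The other Tfap2b probe set, 1423340_at, gave a smaller and less even difference. It read 251 and 622 units in the Hox13dKO samples, against 558 and 682 units in the wild-type samples. Hox13dKO replicate 1 was low, while Hox13dKO replicate 2 lay between the wild-type samples. The Hox13dKO samples differed by 2.48-fold here, a gap that 5.57% of tested probe sets reached or exceeded. The log2 difference was -0.64 ± 0.39 (SE), with a 95% interval of -1.53 to 0.24, and did not pass (adjusted p = 0.900). One array set this value: leaving out Hox13dKO replicate 2 gave -1.30, and leaving out Hox13dKO replicate 1 gave 0.01.

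The disagreement between the Tfap2b probe sets was tested as such. For each array the log2 signal of 1423340_at was taken from that of 1435670_at, and the group difference of this ratio was fitted across the 6128 genes with at least 2 tested probe sets. The ratio was 1.69 and 0.15 in Hox13dKO, against 2.14 and 1.40 in wild type. The groups were -0.86 ± 0.52 apart (SE; 95% interval -2.09 to 0.38), which did not pass (adjusted p = 0.999), so the probe sets were not shown to differ. The interval is wide, so it does not show that they act alike. Of the 6128 genes 0 passed this test in limma (0% of those fitted), with 150 at an unadjusted p under 0.05.

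**Figure D2:**
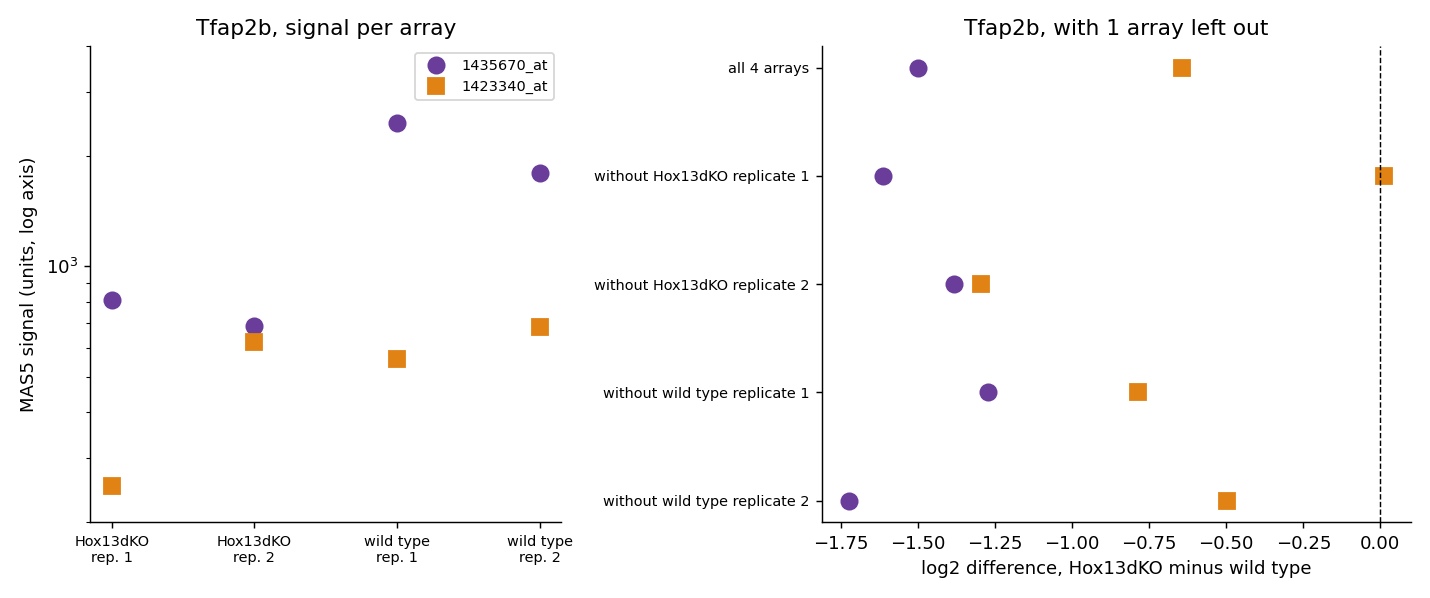
Left, MAS5 signal in units on a log axis of both Tfap2b probe sets on each array. Right, the log2 difference of each, Hox13dKO minus wild type, with all arrays and with 1 array left out. The 1435670_at values stay between -1.72 and -1.27 with an array left out, and those of 1423340_at range from -1.30 to 0.01.

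The size of this gap was set beside that of all other genes. Over the 6128 genes the absolute gap between the log2 differences of the brightest and next brightest probe set had a median of 0.21 and a 90th percentile of 0.73. The gap of Tfap2b, 0.86 in size, was reached or exceeded by 458 genes (7.47%). The gap of Tfap2a was 0.19 ± 0.28 (SE), reached or exceeded by 53.1% of genes, and that of Tfap2c was -0.12 ± 0.54, reached or exceeded by 68.6%. Tfap2b was one of 24 genes that were called by their brightest probe set and had another tested one. In 23 of these the other probe set pointed the same way, as it did for Tfap2b, and in 8 it was also called. Over all 6128 genes, the 2 probe sets pointed opposite ways in 38%. Among the 24 genes the median absolute gap was 0.27, and the gap of Tfap2b ranked 6 from the largest. As signs of RNA quality, the ratio of 5′ to 3′ actin signal was 0.728 and 0.771 in Hox13dKO, against 0.473 and 0.764 in wild type. The same ratio for Gapdh was 1.17 and 1.16 in Hox13dKO, against 1.23 and 1.25 in wild type, and did not set wild type replicate 1 apart. Where the probes of each set lie on the Tfap2b transcripts is not known here, and the part of RNA quality in the disagreement was not tested.

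**Figure D3:**
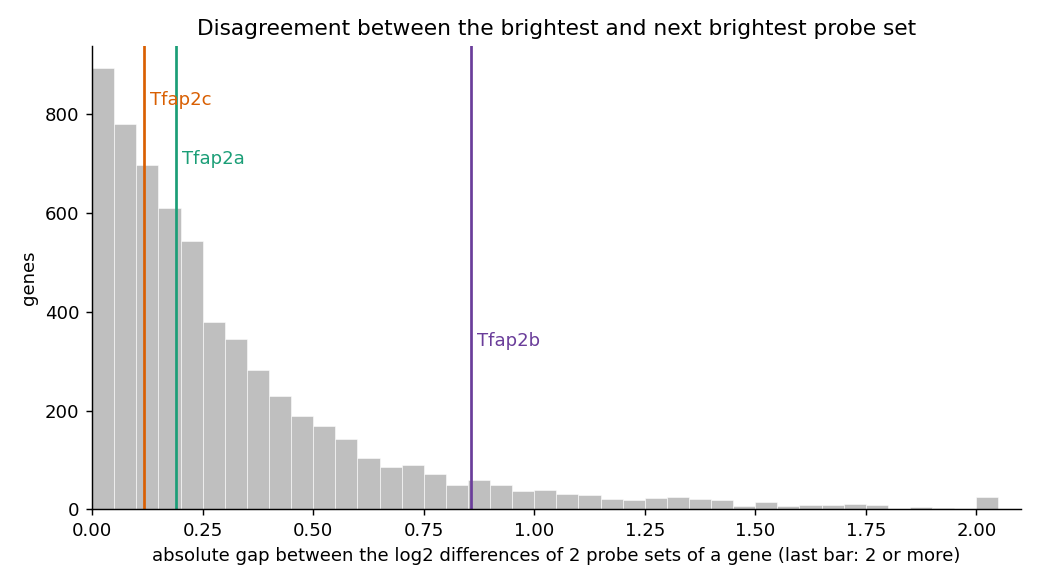
Number of genes, of 6128, by the absolute gap between the log2 differences of their brightest and next brightest probe set. Tfap2a and Tfap2c lie below the median of 0.21, and Tfap2b lies beyond the 90th percentile of 0.73.

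Because the AP-2 gene that passed was Tfap2b, its promoter is shown with those of Tfap2a, which did not pass. They are the 250 bases before the transcription start in RefSeq (GRCm38.p6), at chr1:19211804-19212053 on the plus strand for Tfap2b and, for the 2 starts of Tfap2a on the minus strand, at chr13:40734921-40735170 and chr13:40733796-40734045. Tfap2b sits between Tfap2d and Pkhd1 on chromosome 1. Capitals mark a match on either strand to ATAAA or GTAAA, the short cores of the sites that HOX13 proteins bind in vitro. They would also mark GCCNNNGGC, a palindrome bound by AP-2 proteins.
Tfap2b: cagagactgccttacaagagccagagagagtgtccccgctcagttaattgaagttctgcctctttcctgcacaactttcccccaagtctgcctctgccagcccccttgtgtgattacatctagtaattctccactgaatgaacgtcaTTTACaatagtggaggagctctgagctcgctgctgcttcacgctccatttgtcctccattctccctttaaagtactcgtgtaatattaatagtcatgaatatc
Tfap2a, first start: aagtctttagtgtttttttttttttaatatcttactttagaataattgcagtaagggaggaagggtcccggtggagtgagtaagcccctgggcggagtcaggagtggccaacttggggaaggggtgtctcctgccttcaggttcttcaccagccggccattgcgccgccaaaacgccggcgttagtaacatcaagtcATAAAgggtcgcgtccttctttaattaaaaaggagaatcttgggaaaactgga
Tfap2a, second start: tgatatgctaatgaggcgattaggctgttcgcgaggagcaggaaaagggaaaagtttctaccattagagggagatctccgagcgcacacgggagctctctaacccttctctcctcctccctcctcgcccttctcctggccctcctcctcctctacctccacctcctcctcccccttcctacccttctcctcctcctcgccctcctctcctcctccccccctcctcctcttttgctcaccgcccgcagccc

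The Tfap2b window held 1 GTAAA match, on the minus strand and starting 103 bases before the start site. The first Tfap2a window held 1 ATAAA match, 53 bases before its start site, and the second held 0 of these motifs. Among 32851 such windows 28.3% held GTAAA and 37.3% held ATAAA, so these matches are common. The longer forms CAATAAA and TCGTAAA, which contain the short cores, were in 0 of the 3 windows and in 4.20% and 0.478% of all windows. GCCNNNGGC was in 0 of the 3 windows and in 13.7% of all. Palindromes with another spacing were not searched, so the windows are not shown to lack them. Base composition differed between the windows, with 46.4% G or C for Tfap2b, 47.6% and 60.4% for the first and second start of Tfap2a, and a median of 52.4% over all windows. A match is a run of letters and not a shown binding site.

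Tfap2a, the AP-2 gene of face and body wall closure, had small differences by all 3 of its probe sets. By the brightest, 1421996_at, it read 884 and 918 units in the Hox13dKO samples, against 1273 and 999 units in the wild-type samples. Both Hox13dKO samples were lower, but by little beside the spread in wild type. The log2 difference was -0.32 ± 0.18 (SE), with a 95% interval of -0.73 to 0.08 (adjusted p = 0.885). Leaving out wild type replicate 1 gave -0.15, and leaving out wild type replicate 2 gave -0.50.

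The next probe set of Tfap2a, 1426048_s_at, gave 537 and 695 units in Hox13dKO, against 854 and 891 units in wild type. These groups did not overlap either, and the wild-type samples lay close together. The log2 difference of -0.51 ± 0.19 (SE) had an unadjusted p of 0.0283, which 6.26% of all tested probe sets had under 0.05, and did not pass after adjustment (adjusted p = 0.682). Its suffix is the one Affymetrix gives to probe sets whose probes can match transcripts of more than 1 gene.

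The third, 1421995_at, split the samples by replicate number and not by genotype. It read 108 and 183 units in Hox13dKO, against 110 and 189 units in wild type. Replicate 2 was the higher sample in both groups by about the same factor, 1.69-fold in Hox13dKO and 1.71-fold in wild type. Its log2 difference was -0.04 ± 0.43 (SE; adjusted p = 0.996). The 95% interval, -1.03 to 0.96, reaches a level 2.05-fold lower in Hox13dKO as well as a higher one.

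**Figure D4:**
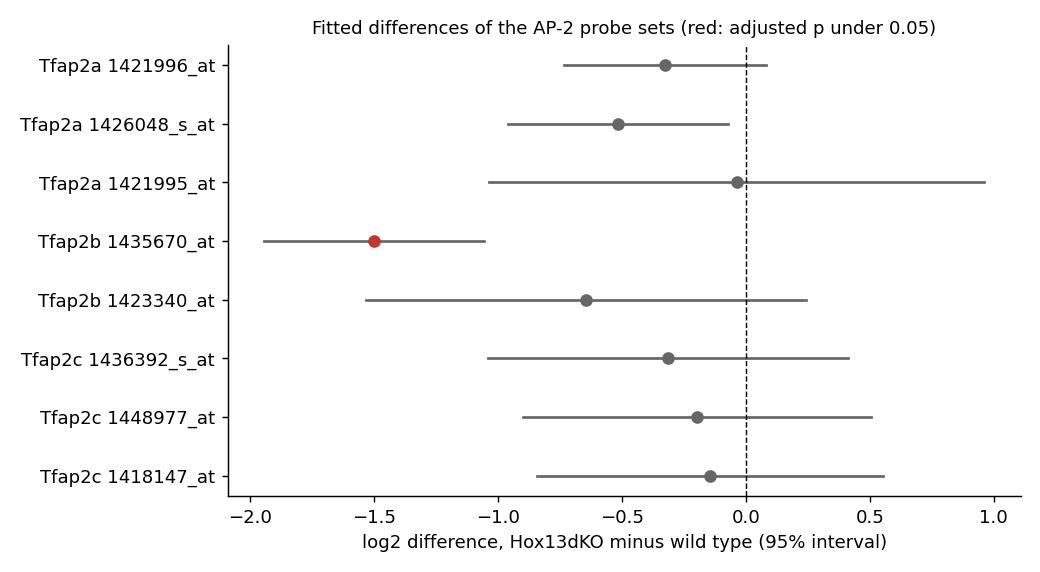
Log2 difference, Hox13dKO minus wild type, of each AP-2 probe set with its 95% interval from limma. Only Tfap2b 1435670_at passed the adjusted p of 0.05 (red), and the interval of Tfap2a 1426048_s_at also lies below 0.

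Tfap2c, which acts with Tfap2a in surface ectoderm, did not differ beyond the replicate spread by any of its 3 probe sets. By the brightest, 1436392_s_at, it read 328 and 379 units in the Hox13dKO samples, against 602 and 318 units in the wild-type samples. The wild-type samples differed by 1.89-fold and enclosed both Hox13dKO samples, a gap that 13.2% of tested probe sets reached or exceeded in wild type. The log2 difference was -0.31 ± 0.32 (SE; 95% interval -1.04 to 0.41; adjusted p = 0.950). Leaving out wild type replicate 1 turned it to 0.15, and leaving out wild type replicate 2 gave -0.77.

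The other Tfap2c probe sets were also within the replicate spread. By 1448977_at the gene read 211 and 272 units in Hox13dKO, against 225 and 334 units in wild type. By 1418147_at it read 166 and 216 units in Hox13dKO, against 211 and 206 units in wild type. Their log2 differences were -0.20 ± 0.30 and -0.14 ± 0.30 (SE), with adjusted p of 0.972 and 0.979. On 3 AP-2 probe sets, 1421995_at of Tfap2a, 1423340_at of Tfap2b and 1448977_at of Tfap2c, both replicate 2 arrays lay above both replicate 1 arrays, an order found in 25.9% of all tested probe sets.

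Whether Tfap2b fell further than its relatives was examined as a ratio within each array, with the brightest probe set of each gene. For Tfap2c that is 1436392_s_at, whose probes, by its suffix, can match transcripts of more than 1 gene. The log2 ratio of Tfap2b to Tfap2a was -0.13 and -0.42 in Hox13dKO, against 0.95 and 0.85 in wild type. The log2 ratio of Tfap2b to Tfap2c was 1.30 and 0.86 in Hox13dKO, against 2.03 and 2.50 in wild type. In both, the Hox13dKO samples lay below the wild-type samples, by -1.17 and -1.19 on average. The log2 ratio of Tfap2a to Tfap2c was 1.43 and 1.28 in Hox13dKO, against 1.08 and 1.65 in wild type, and overlapped (-0.01 on average). In the first 2 ratios the gap between groups was larger than the gap between samples of a group. The exact permutation p (two-sided) was 0.333 for each of them and 1 for the last, or 0.500 and 1 after adjustment over the 3 ratios. With 2 samples against 2 this test cannot go below 0.333, so it could not have passed whatever the ratios were. The lower Tfap2b ratios are shown for its brightest probe set, 1435670_at, only. By the other, 1423340_at, Tfap2b read 251 and 622 units in Hox13dKO, against 558 and 682 units in wild type, which overlap. Ratios of 1423340_at to Tfap2a and Tfap2c were not tested.

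The remaining AP-2 genes on the array were dim. Tfap2d, the neighbour of Tfap2b on chromosome 1, read 27.4 and 9.76 units in Hox13dKO, against 47.3 and 54.7 units in wild type. Tfap2e read 1.83 and 18.7 units in Hox13dKO, against 4.11 and 6.31 units in wild type. The geometric means of both, computed with the floor at 14.1 units, lay under the 39.6 units that a probe set needed, so neither was tested. Whether either was above background is not known here.

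The genes whose pattern over the 4 arrays was nearest to that of Tfap2b 1435670_at were searched among 23539 tested probe sets with 1 symbol. Likeness was the Euclidean distance between log2 signals, each less its own mean over the arrays. The nearest were Ltbp1, a binder of latent TGF-beta (0.23), Sncaip, which encodes a partner of alpha-synuclein (0.23), Lmo2, a LIM-only cofactor of transcription (0.26), the immunoglobulin gene Ighg3 (0.30) and the zinc finger gene Zfp651 (0.31). Of these probe sets, Lmo2 1454086_a_at passed. Lmo2 read 864 and 852 units in Hox13dKO, against 2368 and 1923 units in wild type, 2.49-fold lower (adjusted p = 0.0343). The others were dim, with geometric means of 47.0 to 98.7 units, and did not pass (adjusted p from 0.362 to 0.809). The second Tfap2b probe set lay at a distance of 1.48, with 7656 probe sets of other genes nearer. Genes chosen by this distance are lower in Hox13dKO by the choice, and with 4 arrays many genes share a profile by their group difference alone.

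Proteins that work with or against AP-2 were compared next, from a list of 12 genes of which 10 were measured. In limma 0 were higher and 0 lower, with 2 at an unadjusted p under 0.05, and 7 of the 10 had negative differences. The list's median was -0.06, against -0.03 over the 13072 genes measured by their brightest probe set, of which 40 (0.306%) passed. A positive difference was found in 45.8% of those genes, and an unadjusted p under 0.05 in 6.26% of all tested probe sets. Cited2, a coactivator that joins AP-2 to the acetyltransferases Ep300 and Crebbp, read 6693 and 5417 units in Hox13dKO, against 4507 and 4056 units in wild type. Both Hox13dKO samples were above both wild-type samples, but the log2 difference of 0.49 ± 0.15 (SE) did not pass (adjusted p = 0.493). Kctd1, whose BTB-domain protein represses AP-2 activity, had the same order, with 1105 and 1062 units in Hox13dKO, against 799 and 691 units in wild type (adjusted p = 0.516). Kctd15, a related inhibitor, had a log2 difference of -0.15 ± 0.13, and Cited1, a relative of Cited2, of -0.32 ± 0.24.

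Genes that the literature names as AP-2 targets had differences in both directions. Of 20 listed, 17 were measured and 0 passed in limma (5 at an unadjusted p under 0.05), 10 with positive and 7 with negative differences, and the median was 0.23. Of all 13072 genes 0.306% passed and 45.8% had a positive difference, and 6.26% of all tested probe sets had an unadjusted p under 0.05. Kit, a receptor of melanoblasts and other progenitors, read 288 and 332 units in Hox13dKO, against 611 and 618 units in wild type. That is a log2 difference of -0.99 ± 0.21 (SE), with groups well apart but not past the threshold (adjusted p = 0.192). Mt2, a metal-binding metallothionein, read 1351 and 1732 units in Hox13dKO, against 810 and 913 units in wild type (adjusted p = 0.203). The lipid carrier gene Apoe differed by 0.67 ± 0.20 (adjusted p = 0.468) and Hoxa2, a Hox gene of the hindbrain and branchial arches, by 1.32 ± 0.45 (adjusted p = 0.608). Hoxa2 was dim, with 127 and 140 units in Hox13dKO, against 53.5 and 53.6 units in wild type. Most of this list was named in other tissues than the limb.

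**Figure D5:**
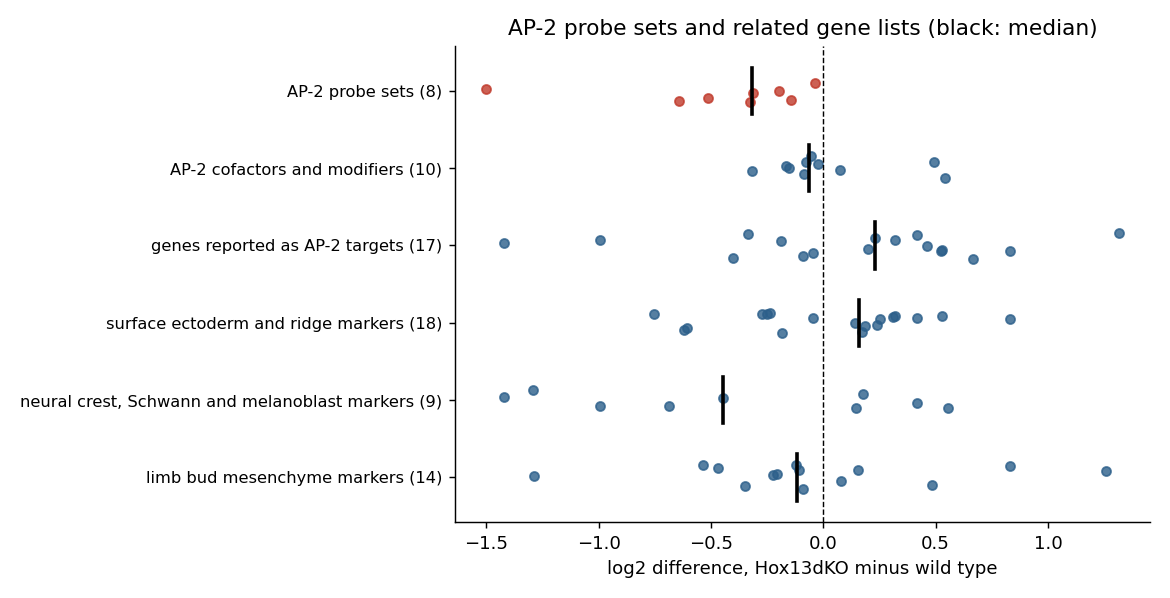
Log2 differences, Hox13dKO minus wild type, of the 8 AP-2 probe sets (red) and of the brightest probe set of each measured gene in 5 related lists (blue), with the number of points in brackets and the median as a black bar. The AP-2 median is -0.32 and the list medians lie between -0.45 and 0.23.

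Because AP-2 genes are active in ectoderm and neural crest as well as in limb mesenchyme, markers of those cells were set beside them. Surface ectoderm and ridge markers had 18 of 20 measured, 0 passed in limma (2 at an unadjusted p under 0.05), 10 were positive and 8 negative, and the median was 0.16. For comparison, 0.306% of all genes passed and 45.8% were positive, and 6.26% of all tested probe sets had an unadjusted p under 0.05. The summed signal of the ectoderm and ridge markers was 13338 and 16086 units in Hox13dKO, against 14075 and 11943 units in wild type, which overlap. Fgf8, the signal of the apical ridge, differed by 0.83 ± 0.22 (SE; adjusted p = 0.336), and the keratin genes Krt8 and Krt5 by -0.61 ± 0.21 and 0.53 ± 0.24. Perp, a desmosome gene of stratified epithelia, differed by 0.31 ± 0.15. Krt15 was too dim to be tested.

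Markers of neural crest, Schwann cells, nerve and melanoblasts differed in both directions. Of 12 listed, 9 were measured, 0 passed in limma (3 at an unadjusted p under 0.05), 4 were positive and 5 negative, and the median was -0.45. Over all genes 0.306% passed and 45.8% were positive, and 6.26% of all probe sets had an unadjusted p under 0.05. Their summed signal was 3281 and 3185 units in Hox13dKO, against 4512 and 3993 units in wild type, lower in both Hox13dKO samples. Kit, the nerve tubulin gene Tubb3 (-1.29 ± 0.37 SE; adjusted p = 0.437), the neurotrophin receptor gene Ngfr (-0.69 ± 0.24; adjusted p = 0.630) and Ets1, a factor also of endothelium and mesenchyme (-0.45 ± 0.20), had the lowest p. Other markers of the list went both ways. Erbb3, a receptor of Schwann cell precursors, differed by 0.42 ± 0.22, with both Hox13dKO samples above both wild-type samples. The melanoblast genes Pmel and Mitf differed by 0.55 ± 0.59 and 0.15 ± 0.37, and the melanoblast gene Dct by -1.42 ± 0.87. The groups overlapped for each of these melanoblast genes, and Dct was dim, with 1 array at the floor. Sox10, the defining factor of crest-derived glia and melanoblasts, was dim, with means of 93.5 units in Hox13dKO and 80.8 units in wild type, and Foxd3 was too dim to be tested. The part of these cells in the Tfap2b difference was not tested.

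Among the limb bud mesenchyme markers, all 14 of which were measured, 0 passed in limma (5 at an unadjusted p under 0.05), 5 were positive and 9 negative, and the median was -0.12. The same shares over all features, 0.306% passed, 45.8% positive and 6.26% of probe sets at an unadjusted p under 0.05, stand beside these counts. Sall3, a zinc finger gene, read 781 and 608 units in Hox13dKO, against 273 and 304 units in wild type (1.26 ± 0.22 SE; adjusted p = 0.103). The T-box genes Tbx2 and Tbx3 differed in opposite directions, by -1.29 ± 0.39 and 0.83 ± 0.26, and Prrx1, a homeobox gene of limb mesenchyme, by 0.48 ± 0.16.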

How the data were processed

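Expression was measured on 4 Affymetrix arrays, 1 per sample. The values are the intensity per probe set, deposited by the authors on a linear scale and made with MAS5, per the submitters' processing notes. No MAS5 version is stated there. No read depth exists for this assay, and the number of arrays limits the precision. Detection calls were not used here.

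The platform annotation gave 1 gene symbol to 34958 of 45101 probe sets, several to 932 and none to 9211. Tests left out the 64 control probe sets. Signals under the 20th percentile, 14.1 units, were set to that value before taking log2. Probe sets whose mean log2 signal reached the 40th percentile (39.6 units) were tested with limma 3.58.1 in R 4.3.3 (lmFit, eBayes with intensity trend, two-sided) and Benjamini-Hochberg adjustment over all 27022, at a threshold of 0.05, with 2 residual and 6.05 prior degrees of freedom. Disagreement between probe sets was fitted in the same way on within-array log2 ratios. For gene lists the brightest tested probe set of each gene was used, with no set test. The steps were tested on simulated data. Figures were drawn with matplotlib 3.10.9.

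Named were every AP-2 probe set, Tfap2d and Tfap2e, the targeted genes, list members past the threshold, the 4 with the lowest p in each list, and the 5 genes nearest to Tfap2b. Sox10, Foxd3, Erbb3, Pmel, Mitf, Dct, Krt15, Ep300 and Crebbp were named besides. The genes and lists were chosen with earlier results of these data known. The alternatives were other scalings, floors, filters and variance settings, the replicate number as a block, other choices of probe sets, and leaving out each array.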

Additional observations from a re-analysis of the deposited data

How the results depend on the processing

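Tfap2b stayed lower in Hox13dKO under all 15 alternatives, with log2 differences from -1.72 to -1.07. The value of -1.07 was the mean over both of its probe sets, and the others were of its brightest. For the brightest, -1.50 is fixed under no floor, other filters, other variance settings, the replicate block and the removal of probe sets by suffix. Those settings bear on whether Tfap2b passed, and not on its sign. It did not pass with no filter or no intensity trend (-1.50 each), as the mean over both of its probe sets (-1.07, adjusted p = 0.0981), or when either Hox13dKO array was left out. With an array left out it ranged from -1.72 to -1.27. Tfap2a (brightest) stayed negative and short of the threshold under all 15, from -0.50 to -0.15. Tfap2c (brightest) ranged from -0.77 to 0.15 with an array left out, and it was positive without wild type replicate 1. Among the other probe sets, signs turned for 1421995_at (0.34 without Hox13dKO replicate 1, 0.35 without wild type replicate 2, lowest -0.42), 1423340_at (-1.30 to 0.011), 1418147_at (-0.33 to 0.047) and 1448977_at (-0.48 to 0.090), each with an array left out. The gap between the Tfap2b probe sets never passed, and ranged from -1.63 to -0.09 with an array left out.

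The number of probe sets past the threshold, 56, was 214 after median centring (146 higher), 0 with no filter (3159 at an unadjusted p under 0.05), 1 with no intensity trend, 35 with the mean over the probe sets of a gene and 16 to 467 with an array left out. The causes were not tested. The last 2 settings have fewer features or fewer arrays by construction, and with an array left out the count moved in both directions. The replicate numbers are not stated to mark a shared litter or day. Same-numbered deviations correlated with r = 0.198, and with 2 pairs they share only a number. With the replicate block 418 probe sets passed, Tfap2b among them (adjusted p = 0.000299), as did 1 cofactor (Cited2), 2 listed targets (Kit and Mt2), 1 ectoderm marker (Fgf8), 1 crest or melanoblast marker (Kit) and 3 mesenchyme markers (Prrx1, Sall3 and Tbx2). Without wild type replicate 2 the log2 difference was 0.92 for the target Mt2 and 2.94 for the ectoderm marker Krt15. For the mesenchyme marker Sall3 it was 1.34 in that fit and 1.18 without wild type replicate 1. Krt15 lay under the filter with all 4 arrays, and it entered that fit by a mean over 2 Hox13dKO arrays and 1 wild-type array. Its value there is not a test of the gene. Of the 4 targeted Hox genes, 0 passed with no filter and 1 with no intensity trend. A group reduced to 1 array took its spread from the other group.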
